A study of Homo sapiens with 6 samples.

Results

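The genes described here are the 35 genes of protein folding and disposal in the endoplasmic reticulum (ER), taken by symbol from the 31369 genes of the count table of HK-2 cells. They fall into 14 chaperones and co-chaperones, 8 enzymes that make or rearrange disulfide bonds, 3 genes of stress sensing (ERN1, ATF6 and XBP1) and 10 genes of ER-associated degradation (ERAD). All 35 were in both deposited tables and all passed the filter on low counts. HK-2 is an immortalised human cell line that came from the proximal tubule of the kidney.

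There were 3 control samples (NC) and 3 samples overexpressing PPM1K (OE), a phosphatase of mitochondria. PPM1K was brought in on a plasmid by lipid transfection, and what the control cells received is not stated in the sources used here. The genotype entries give WT for NC and PPM1K overexpression for OE, whereas the titles call the same samples shControl and shPPM1K. All 6 samples share the time entry of day 10, the growth medium and a treatment entry that names chronic kidney disease, and the cell line entry carries a different number after HK in each sample. The study calls its replicates biological, but the sources used here do not say that they were separate cultures. The p-values set the difference between groups against the spread of samples within a group, which may be technical. If that spread is technical, the p-values are too small for a claim about PPM1K overexpression. Reads of the PPM1K gene numbered 37, 19 and 53 in the NC samples and 3294, 3531 and 2919 in the OE samples, which goes with the genotype entries. Total counts were 34635770 to 36116963 in NC and 36033404 to 39850802 in OE. NC replicate 2 stood apart with 26478 detected genes, against 22094 to 22913 in the other samples. Of 15 epithelial and proximal tubule markers 10 had a mean above 1 CPM in NC (counts scaled by library size, as edgeR gives them), among them KRT8, KRT18, EPCAM and PAX8, while the brush border genes LRP2, CUBN and AQP1 were at most 0.115 CPM on average in either group. The 15 summed to 4732 to 5154 CPM in NC and 3832 to 4176 CPM in OE. That list and sum include VIM, a mesenchymal marker, with a mean of 982 CPM in NC and 771 CPM in OE. All markers of leukocytes and podocytes were below 1 CPM on average. The 3 endothelial markers summed to 2.39 to 3.28 CPM in NC and 3.69 to 3.85 CPM in OE, and the 4 fibroblast markers to 13.4 to 14.8 CPM in NC and 6.83 to 8.78 CPM in OE, most of it COL1A1. Their part in the results below was not tested. In bulk RNA, a smaller change in every cell and a larger one in only some of the cells cannot be told apart.

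Secreted and membrane proteins fold in the ER, where chaperones hold unfolded chains, disulfide isomerases pair their cysteines and ERAD passes failed products to the proteasome. When unfolded protein accumulates, the sensors IRE1 (the product of ERN1), ATF6 and PERK start the unfolded protein response. Cleaved ATF6 and spliced XBP1 then switch on chaperone and ERAD genes through short promoter elements, and PERK acts through ATF4. In the proximal tubule this system is known to respond to protein overload and toxins.

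The best known of these elements, the ER stress response element ERSE (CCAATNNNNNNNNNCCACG), was found in 8 of the 32 members that have a RefSeq promoter window, from 250 bases before to 50 after a gene start (GRCh38.p14), with both strands searched. Its matches are shown because HSP90B1, CALR and CRELD2, which were among the most strongly lowered members, carry it, as does XBP1, which rose. Each is written 5′ to 3′ on the strand named, with the fixed letters of the element in capitals and the spacer in lower case.
HSP90B1 (chr12:103930216-103930234, plus strand): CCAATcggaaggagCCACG
HSP90B1 (chr12:103930321-103930339, minus strand): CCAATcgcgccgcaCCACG
CALR (chr19:12938384-12938402, minus strand): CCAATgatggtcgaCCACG
HSPA5 (chr9:125241391-125241409, minus strand): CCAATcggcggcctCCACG
CRELD2 (chr22:49918554-49918572, minus strand): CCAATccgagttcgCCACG
PDIA6 (chr2:10812853-10812871, minus strand): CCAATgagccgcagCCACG
XBP1 (chr22:28800603-28800621, minus strand): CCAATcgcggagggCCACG
CANX (chr5:179698778-179698796, plus strand): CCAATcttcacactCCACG
ERO1B (chr1:236282183-236282201, plus strand): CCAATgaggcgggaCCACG

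The shorter element ERSE-II (ATTGGNCCACG), which ends in the same CCACG and begins with the reverse complement of CCAAT, was matched in 3 members, of which SDF2L1 fell and HYOU1 rose.
SDF2L1 (chr22:21642114-21642124, minus strand): ATTGGtCCACG
HERPUD1 (chr16:56932025-56932035, plus strand): ATTGGgCCACG
HYOU1 (chr11:119057274-119057284, plus strand): ATTGGaCCACG
HYOU1 (chr11:119057380-119057390, plus strand): ATTGGaCCACG

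Among all 35116 RefSeq windows, 0.0769% held ERSE and 0.0541% held ERSE-II. By gene, 17 of 11106 tested genes with a window held ERSE (0.153%), 8 of them members. The members were listed as ER stress genes, some of which are textbook carriers of these elements, so these shares describe the list and are not independent evidence. The core of another element, UPRE (TGACGTGG), was in DNAJC10, HYOU1 and TXNDC5 and in 1.22% of tested genes. The element read by ATF4 with C/EBP factors (TGATGNAA) was matched only in HERPUD1 among the members, and in 2.76% of tested genes. A match of letters shows neither binding nor use of a site.

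In the test of OE against NC, ER folding genes fell more often than they rose. Of the 35 members, 17 fell, 8 rose and 10 did not pass the threshold, an adjusted p under 0.05 in the quasi-likelihood test of edgeR with adjustment by Benjamini and Hochberg. Among all 15878 tested genes 23.7% were lower and 24.9% higher by the same rule, so the members' share of 48.6% lower was well above the background and their share of 22.9% higher was close to it. The background was not matched to the members by level, and well-counted genes pass more readily. The disulfide enzymes gave 7 lower and none higher, the chaperones 8 lower and 3 higher, the sensor genes 3 higher, and ERAD 2 lower and 2 higher. The median log2 fold change was −0.16 over the members and −0.0032 over all tested genes. Every OE sample lay below every NC sample in 17 members, against 27.1% of all genes, and above in 11, against 28.2%. Most changes were under 2-fold. Only CRELD1 (lower) and ERN1 (higher) passed the fold of 2 used in the study, where 3.79% of all genes were lower and 1.73% higher. Without NC replicate 2 the counts were 17 lower and 7 higher.

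**Figure D1:**
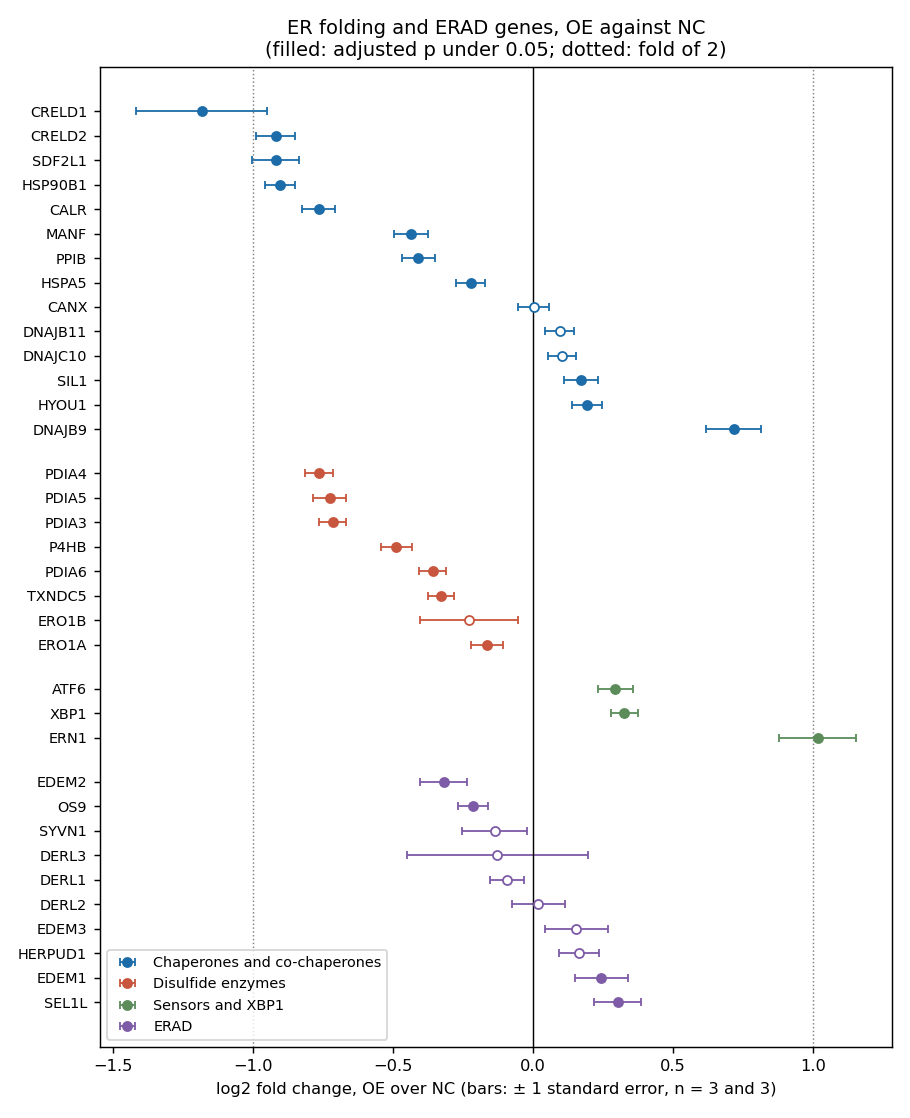
Log2 fold change of OE over NC (x axis) for each of the 35 genes (y axis), grouped by class, with 1 standard error on each side. Disulfide enzymes lie left of 0, sensor genes right of 0, chaperones span from −1.18 for CRELD1 to 0.72 for DNAJB9, and ERAD genes stay between −0.32 and 0.30.

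Both of the most abundant ER chaperones fell. CALR encodes calreticulin, the soluble lectin chaperone that binds calcium and newly made glycoproteins (chromosome 19, 12938578 to 12944489 on the plus strand, GENCODE release 44 on GRCh38). Its CPM was 3621, 3506 and 3536 in the NC samples, in replicate order, and 2241, 2084 and 1942 in the OE samples. All OE samples lay far below all NC samples, and the log2 fold change was −0.77 (SE 0.06, adjusted p = 8.6e-10 from edgeR). HSP90B1 encodes GRP94, the ER form of HSP90 (chromosome 12, 103930107 to 103953931, plus strand). Its CPM went from 3780, 3686 and 3682 in NC to 2012, 1910 and 2030 in OE, which is −0.91 as log2 fold change (SE 0.05, adjusted p = 1.5e-11 from edgeR). This was the smallest p of the members. CALR and HSP90B1 overlap other annotated genes, as do 27 of the 35 members. Whether the counting used strand is not given in the sources used here, so counts of those genes are uncertain.

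HSPA5, the gene of the HSP70 chaperone BiP and the usual gauge of ER stress, changed much less. Its CPM was 1149, 1126 and 1197 in NC and 1016, 1008 and 951 in OE. The groups did not overlap, yet the log2 fold change was only −0.22 (SE 0.05, adjusted p = 0.0012 from edgeR). Within each sample the HSP90B1 count was 321 ± 12.0 (SD, n = 3) per 100 HSPA5 counts in NC and 200.4 ± 12.2 (SD, n = 3) in OE. Such a ratio of counts does not depend on how libraries are scaled, and it shows that the pair changed unequally.

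Of the partners of BiP, some rose while BiP fell. HYOU1 (GRP170) and SIL1 are exchange factors that free BiP of its nucleotide, and both were higher in OE. HYOU1 rose from a CPM of 218, 199 and 195 to 229, 242 and 228 (log2 fold change 0.19, adjusted p = 0.0046 from edgeR). SIL1 stood at 70.6, 61.0 and 69.2 CPM in NC and 76.1, 77.6 and 72.3 in OE (log2 fold change 0.17, adjusted p = 0.022 from edgeR). The SIL1 call rested on single libraries, with an adjusted p of 0.16 without NC replicate 2, 0.054 without OE replicate 1 and 0.079 without OE replicate 2. DNAJB9 (ERdj4) is a J-domain partner that recruits BiP to IRE1 and to ERAD clients, and it rose most of the chaperone class. Its CPM was 11.0, 12.0 and 11.8 in NC and 18.3, 16.6 and 22.5 in OE, so the groups were well apart (log2 fold change 0.72, SE 0.10, adjusted p = 4.2e-06 from edgeR). The other J-domain partners were closer to no change. DNAJB11 (ERdj3), which hands unfolded chains to BiP, gave 0.10 on the log2 scale (adjusted p = 0.13), and DNAJC10 (ERdj5), which reduces disulfides of ERAD clients, gave 0.10 (adjusted p = 0.092, both from edgeR).

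Counted against HSPA5 in the same sample, HYOU1 went from 17.6 ± 1.35 (SD, n = 3) per 100 HSPA5 counts in NC to 23.5 ± 0.831 in OE, and SIL1 from 5.78 ± 0.367 to 7.60 ± 0.105. DNAJB9 went from 1.01 ± 0.0572 to 1.94 ± 0.375, and DNAJB11 from 49.0 ± 2.68 to 61.0 ± 1.04. In each of these ratios every OE sample was above every NC sample, with an exact two-sided permutation p of 0.1, which is the smallest that 3 samples against 3 allow. In all 8 ratios of this kind were computed, chosen after the values were seen, and each had a Benjamini-Hochberg adjusted exact p of 0.1.

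SDF2L1, CRELD2 and MANF are small ER proteins known as strongly inducible by ER stress, and all 3 were lower in OE. SDF2L1, which keeps ERdj3 and its clients soluble, had 25.1, 21.4 and 24.6 CPM in NC and 13.4, 12.5 and 11.8 in OE (log2 fold change −0.92, SE 0.08, adjusted p = 1.6e-08 from edgeR). CRELD2, an EGF-domain protein with disulfide isomerase activity, fell from 48.8, 42.0 and 48.0 CPM to 25.2, 24.2 and 24.0 (log2 fold change −0.92, SE 0.07, adjusted p = 8.9e-10 from edgeR). In both genes the OE samples were close together, at little over 0.5 of the NC level. MANF, a secreted cofactor of BiP, changed by −0.44 on the log2 scale (adjusted p = 4.3e-06 from edgeR). CRELD1, the membrane-bound relative of CRELD2, fell most of all members, but at a low level. It was counted 96, 80 and 125 times in NC and 51, 31 and 58 times in OE (log2 fold change −1.18, SE 0.23, adjusted p = 0.00027 from edgeR). Without OE replicate 2 its log2 fold change was −0.93, under the fold of 2.

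CANX, the membrane-anchored partner of calreticulin in the same glycoprotein cycle, did not pass the test. Its CPM was 1149, 1074 and 1062 in NC and 1111, 1027 and 1154 in OE. The groups overlapped and the log2 fold change was 0.0029 (SE 0.06, adjusted p = 0.97 from edgeR), with a sign that changed between settings. The CALR count per 100 CANX counts was 325 ± 9.05 (SD, n = 3) in NC and 191 ± 19.7 in OE, with no overlap (exact two-sided permutation p = 0.1). PPIB, the ER prolyl isomerase cyclophilin B, was lower with a log2 fold change of −0.41 (adjusted p = 6.4e-06 from edgeR).

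**Figure D2:**
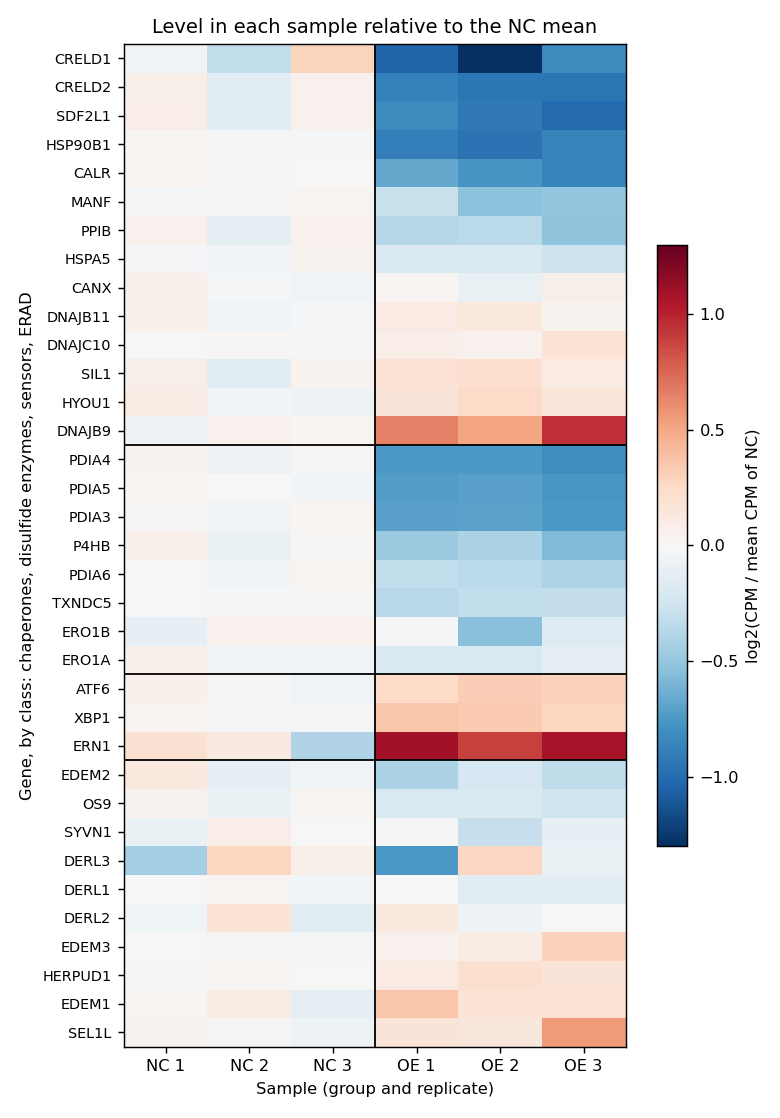
Level of each gene (rows, by class) in each of the 6 samples (columns) as the log2 ratio of its CPM to the mean CPM of the NC samples, blue for lower and red for higher. The 3 OE columns are alike for most lowered genes, such as HSP90B1 and PDIA4, while SEL1L is highest in OE replicate 3.

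Of the 8 listed disulfide enzymes, 7 passed the test as lower in OE. Protein disulfide isomerases form, break and reshuffle disulfide bonds, and the 6 isomerases listed here were lower, by log2 fold changes from −0.77 to −0.33. PDIA4 (ERp72; chromosome 7, 149003062 to 149028662, minus strand) overlaps no other gene and had 412, 381 and 403 CPM in NC and 238, 238 and 228 in OE. Its log2 fold change was −0.77 (SE 0.05, adjusted p = 7.7e-11 from edgeR). PDIA3 (ERp57), which works with calreticulin and calnexin on glycoproteins, had 489, 470 and 490 CPM in NC and 296, 298 and 288 in OE (log2 fold change −0.72, SE 0.05, adjusted p = 1.3e-10 from edgeR). Both enzymes thus stood at about 0.6-fold of NC with little spread.

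PDIA5, a less abundant isomerase, was lowered by as much. It went from 51.0, 50.5 and 48.9 CPM to 30.4, 30.8 and 29.7 (log2 fold change −0.73, SE 0.06, adjusted p = 2.9e-09 from edgeR). P4HB encodes the founding isomerase PDI, which is also a subunit of the collagen prolyl 4-hydroxylase. Its CPM was 812, 734 and 787 in NC and 556, 583 and 523 in OE (log2 fold change −0.49, SE 0.06, adjusted p = 2.8e-07 from edgeR). PDIA6 (P5), with −0.36, and TXNDC5 (ERp46), with −0.33, had smaller decreases (adjusted p = 4.0e-06 and 7.2e-06 from edgeR).

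The oxidases ERO1A and ERO1B return electrons from these isomerases to oxygen. ERO1A, which CHOP is known to induce, had 60.5, 56.1 and 56.3 CPM in NC and 50.7, 50.1 and 53.3 in OE (log2 fold change −0.16, SE 0.06, adjusted p = 0.019 from edgeR). That call was lost without NC replicate 1 (adjusted p = 0.15), OE replicate 1 (0.081) or OE replicate 2 (0.089). ERO1B was counted 76 to 104 times per sample and did not pass the test (log2 fold change −0.23, SE 0.17, adjusted p = 0.29 from edgeR). Counted against P4HB, ERO1A was higher in OE, at 9.31 ± 0.810 (SD, n = 3) per 100 P4HB counts against 7.41 ± 0.246 in NC.

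The 3 listed genes of stress sensing, ERN1, XBP1 and ATF6, rose, whereas the gene of the other sensor, PERK, fell (EIF2AK3, −0.54). ERN1 encodes IRE1, the kinase and RNase that splices XBP1 (chromosome 17, 64039080 to 64130819, minus strand). It was counted 160, 153 and 110 times in NC and 314, 292 and 306 times in OE, so the groups were wide apart although the gene is among the least abundant members. Its log2 fold change was 1.02 (SE 0.14, adjusted p = 3.3e-06 from edgeR), which lies at the fold of 2. The value fell under that fold without NC replicate 3 (0.86), OE replicate 1 (0.99) or OE replicate 3 (0.99), while its adjusted p was at most 4.1e-05 with any 1 sample left out. ERN1 overlaps a pair of unnamed genes on the opposite strand.

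XBP1, the transcription factor that IRE1 activates by splicing its mRNA, overlaps no other gene. Its CPM was 170, 162 and 164 in NC and 212, 209 and 200.2 in OE (log2 fold change 0.33, SE 0.05, adjusted p = 1.1e-05 from edgeR). Counts per gene do not separate spliced from unspliced XBP1, and neither cleavage of ATF6 nor phosphorylation of IRE1 was measured. ATF6, the membrane-bound factor that is cut in the Golgi, rose from 35.4, 33.6 and 32.7 CPM to 40.6, 42.2 and 41.8 (log2 fold change 0.29, SE 0.06, adjusted p = 0.00053 from edgeR). In all 3 genes every OE sample was above every NC sample.

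The ERAD genes moved little, in both directions. SEL1L, the scaffold of the HRD1 ubiquitin ligase, had 39.1, 38.5 and 36.3 CPM in NC and 42.6, 42.2 and 55.8 in OE. OE replicate 3 stood out, and the change of 0.30 on the log2 scale (adjusted p = 0.0053 from edgeR) became 0.16 (adjusted p = 0.054) without it. SYVN1, the gene of the ligase HRD1 itself, did not pass the test (−0.14, adjusted p = 0.34 from edgeR), with overlapping groups. OS9, a lectin that delivers misfolded glycoproteins to SEL1L, was the most abundant ERAD gene. It had 782, 715 and 776 CPM in NC and 660, 667 and 632 in OE (log2 fold change −0.21, SE 0.05, adjusted p = 0.0019 from edgeR).

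Members of the EDEM family, which trim mannose from glycoproteins bound for ERAD, did not move alike. EDEM2 went from 20.6, 17.6 and 18.5 CPM to 14.2, 16.2 and 15.1 (log2 fold change −0.32, SE 0.08, adjusted p = 0.0036 from edgeR). EDEM1, a known target of spliced XBP1, went the other way, from 10.5, 11.1 and 9.51 CPM to 13.4, 11.7 and 11.8 (0.24, SE 0.09, adjusted p = 0.036 from edgeR). Its call was lost with DESeq2 (adjusted p = 0.075), with no filter on low counts (0.054) and without NC replicate 1 (adjusted p = 0.064), NC replicate 3 (0.16) or OE replicate 1 (0.15). EDEM3 did not pass the test (0.15, adjusted p = 0.27 from edgeR). The EDEM1 count per 100 EDEM2 counts was 55.1 ± 6.74 (SD, n = 3) in NC and 81.6 ± 11.1 in OE, again without overlap.

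HERPUD1, a membrane protein of the HRD1 complex and the member whose window held both ERSE-II and the ATF4 element, narrowly missed the threshold. Its CPM was 22.3, 23.1 and 22.6 in NC and 24.5, 26.2 and 25.5 in OE. The groups did not overlap, and the log2 fold change was 0.16 (SE 0.07, adjusted p = 0.061 from edgeR). The derlins, which form part of the channel through which ERAD clients leave the ER, did not pass the test, with −0.09 for DERL1, 0.02 for DERL2 and −0.13 for DERL3. DERL3 was counted only 18 to 39 times per sample, and its standard error of 0.32 leaves room for a change of the size seen in other members.

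**Figure D3:**
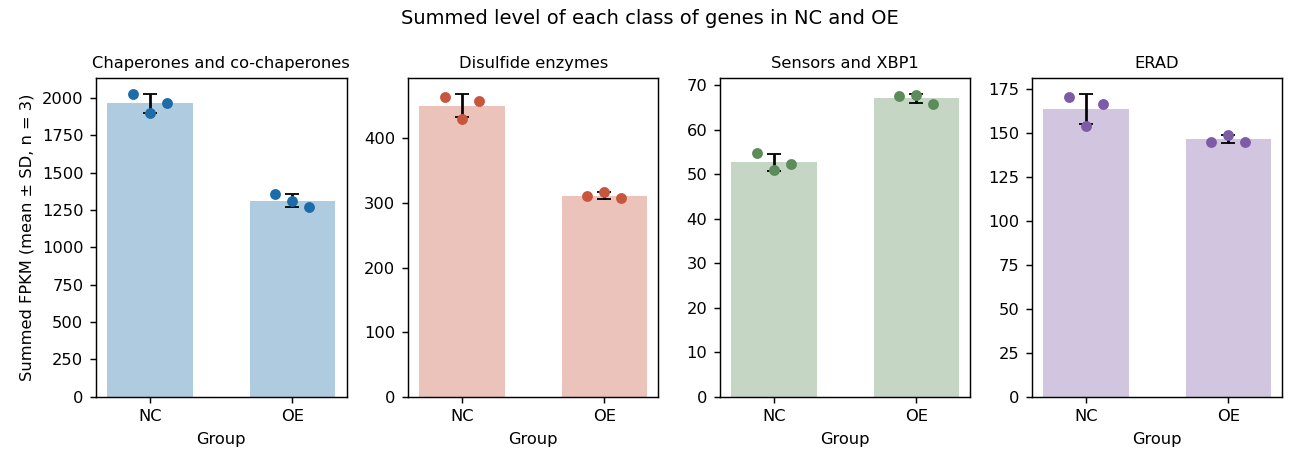
Summed deposited FPKM of each class (y axes, from 0) in NC and OE, with bars for the mean, whiskers for the SD and points for the 3 samples. The chaperone sum falls from 1965 to 1313 and the disulfide enzyme sum from 451 to 311, while the sum of the sensor genes rises from 52.6 to 67.0.

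Levels between genes are given as FPKM, which is per kilobase of transcript. CALR was highest in NC with an FPKM of 1169 ± 33.7 (SD, n = 3), followed by HSP90B1 with 262 ± 6.78, HSPA5 with 163 ± 6.31 and OS9 with 135 ± 8.25. OS9 and PPIB (127 ± 9.99) did not differ beyond their spread, and neither did PDIA6 (115 ± 4.09) and PDIA4 (111 ± 5.82). In FPKM ERN1 was lowest with 0.193 ± 0.0379, within the spread of DERL3. These levels depend on the length the authors divided by. For the 29 members whose identifier version is that of GENCODE release 44, the length that counts and FPKM imply was 1.07 to 1.08 times the length of all annotated exons merged, which is 13.1 kb for HSP90B1 where its canonical transcript has 2.78 kb. As CPM per kilobase of the canonical transcript, CALR had 1878 ± 27.6 and HSP90B1 1341 ± 21.8 in NC, so their order was kept but the gap was much smaller. On that scale the ties above did not hold. PPIB had 675 ± 38.9 against 284 ± 11.2 for OS9, and PDIA6 had 225 ± 3.48 against 145 ± 4.55 for PDIA4. HSPA5 then ranked 6 and OS9 ranked 7 among the members. DERL3 was lowest with 0.267 ± 0.0664, and ERN1 had 0.509 ± 0.108.

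Summed over the chaperones, FPKM was 2028, 1899 and 1970 in the control samples and 1356, 1311 and 1271 in OE. The mean ratio of OE to NC was 0.668, and the same ratio was 0.691 in CPM and 0.669 per kilobase of canonical transcript. CALR made up 59.5% of the chaperone FPKM in NC and 53.0% in OE, so in this unit the sum reads mostly that gene. Its share in NC was 31.6% of the chaperone CPM, where HSP90B1 had 33.0%, and 37.5% per kilobase of canonical transcript, where HSP90B1 had 26.8%. The disulfide enzymes summed to 451 ± 18.5 (SD, n = 3) in NC and 311 ± 4.82 in OE, a ratio of 0.691. ERAD summed to 163 ± 8.66 and 146 ± 2.24, a ratio of 0.894 that is mostly OS9.

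Members of high level fell more often than the others. Of the 10 members with the highest FPKM in NC, 9 were lower in OE at an adjusted p under 0.05, none was higher and CANX did not pass the test. Of the other 25, 8 were lower and 8 higher. Among all tested genes 23.7% were lower and 24.9% higher. Per kilobase of canonical transcript, PDIA3, which was lower, left the top 10. DNAJB11, which did not pass the test, took its place. The NC level that ranks the members is also the base of the fold change. Across the 35 members Spearman's rho of the mean FPKM in NC with the change was −0.43, and it was −0.43 with the canonical length. Across all 15878 tested genes rho with the log2 fold change was 0.15. That value used the mean FPKM over all 6 samples instead of NC alone, so it is not like for like with the members' value. These are descriptions over genes that share the same 6 libraries.

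**Figure D4:**
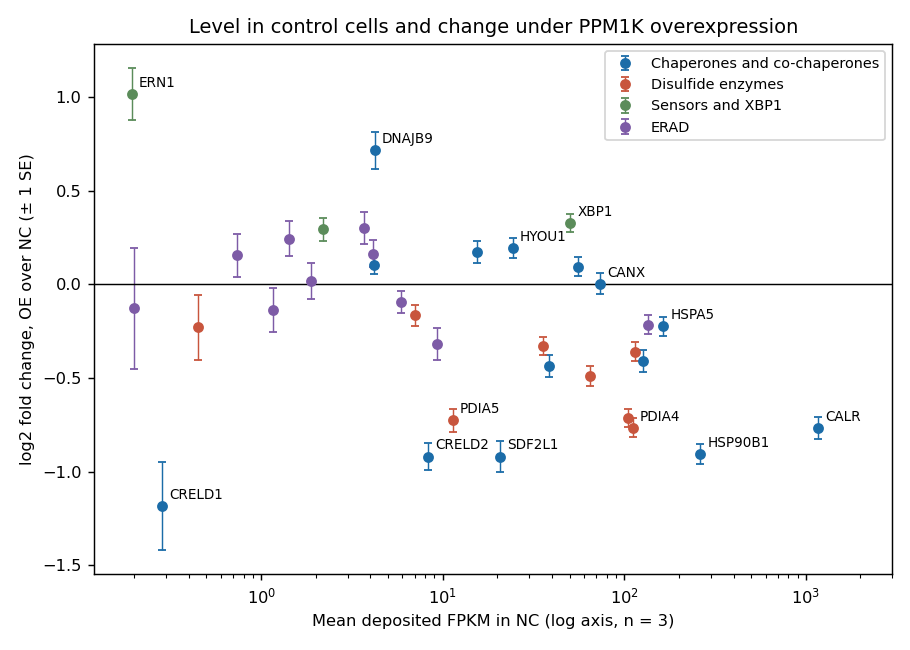
Mean deposited FPKM of each gene in NC (x axis, log scale) against the log2 fold change between OE and NC (y axis, with 1 standard error on each side), coloured by class. CALR, HSP90B1 and HSPA5, on the right, lie below 0, while ERN1 and DNAJB9, which rose most, are on the left.

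Members that carried the promoter elements moved in both directions. Of the 8 members with ERSE, 5 were lower (CALR, HSP90B1, CRELD2, PDIA6 and HSPA5), XBP1 was higher, and CANX and ERO1B did not pass the test. With ERSE-II, SDF2L1 was lower, HYOU1 higher and HERPUD1 did not pass the test. Members with either element gave 6 lower and 2 higher of 11, and members with a window and neither gave 10 lower and 6 higher of 21. Among all 35 members 48.6% were lower and 22.9% higher, and among all tested genes 23.7% and 24.9%. Whether members with and without an element differ was not tested. The other 9 tested genes with ERSE in their window gave 3 lower and 2 higher, with a median log2 fold change of −0.13.

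Other genes of the same pathway were counted from lists written by hand. For comparison, 23.7% of all tested genes were lower and 24.9% higher. Of 43 tested further ER folding genes, 20 were lower (46.5%) and 11 higher (25.6%), with a median log2 fold change of −0.13. The smallest p belonged to TMX3, a membrane disulfide isomerase (0.61), NUCB2, a calcium-binding protein (−0.43), and SEC63, a J-domain partner of BiP at the translocon (0.42). The other TMX, ERP and TXNDC genes of this list, named after their values were seen, moved in both directions. TMX1 (0.22), TMX2 (0.29), TMX4 (0.33) and ERP29 (0.39) were higher like TMX3, while ERP44 (−0.25), TXNDC12 (−0.21) and TXNDC16 (−0.43) were lower and TXNDC11 (−0.19) did not pass the test. Of its FKBP genes, FKBP2 (−0.17), FKBP7 (−0.54), FKBP9 (−0.39), FKBP11 (−0.69) and FKBP14 (−0.63) were lower, and FKBP10 (0.13) did not pass the test. CLGN (1.07) was the only gene of the list past a fold of 2. Of 43 further ERAD genes 15 were higher (34.9%) and 5 lower (11.6%), with a median of 0.03. Among them VCP, the ATPase that pulls clients out of the membrane, was lower (−0.47), and AUP1 (0.48) and FOXRED2 (0.71) were higher.

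Of 34 genes of the translocon and of N-glycosylation, 10 were lower (29.4%) and 7 higher (20.6%), with a median of −0.0097. Both shares were close to those of all tested genes, 23.7% and 24.9%. TRAM1 (−0.75), SPCS3 (−0.53) and SRPRB (0.52) had the smallest p. Of 26 genes of COPII export from the ER, 11 were lower (42.3%) and 3 higher (11.5%), with a median of −0.12. The coat subunit SEC24D changed most of them (log2 fold change −1.13, adjusted p = 1.3e-09 from edgeR). Of 17 tested further regulators of the unfolded protein response, 5 were lower (29.4%) and 3 higher (17.6%). Those 5 included EIF2AK3, the gene of the sensor PERK, which went from 24.2, 27.3 and 24.5 CPM in NC to 15.9, 18.2 and 18.1 in OE (log2 fold change −0.54, SE 0.08, adjusted p = 1.1e-05 from edgeR). The PERK gene was thus lower in OE, whereas the ERN1 and ATF6 genes were higher. WFS1 (−0.63) and CREB3L1 (−0.52), an ER-anchored relative of ATF6, were lower too.

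Genes of the ATF4 arm, which PERK and other kinases of eIF2alpha feed, were mostly higher in OE. Of 15 tested, 12 were higher (80%) and 3 lower (20%), with a median log2 fold change of 1.02 and a lowest of −0.49. Among all tested genes 24.9% were higher and 23.7% lower. DDIT3, the gene of CHOP, had 46.3, 47.0 and 49.1 CPM in NC and 106, 102 and 93.0 in OE (log2 fold change 1.08, adjusted p = 3.1e-12 from edgeR). TRIB3, a CHOP target, rose by 2.35 on the log2 scale, ASNS by 2.33 and SESN2 by 1.87. The changes of TRIB3, ASNS and SESN2 were larger than that of any of the 35 ER genes. For TRIB3, however, the paper reports a significant decrease by RT-PCR on the same RNA, which conflicts with its sequencing.

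**Figure D5:**
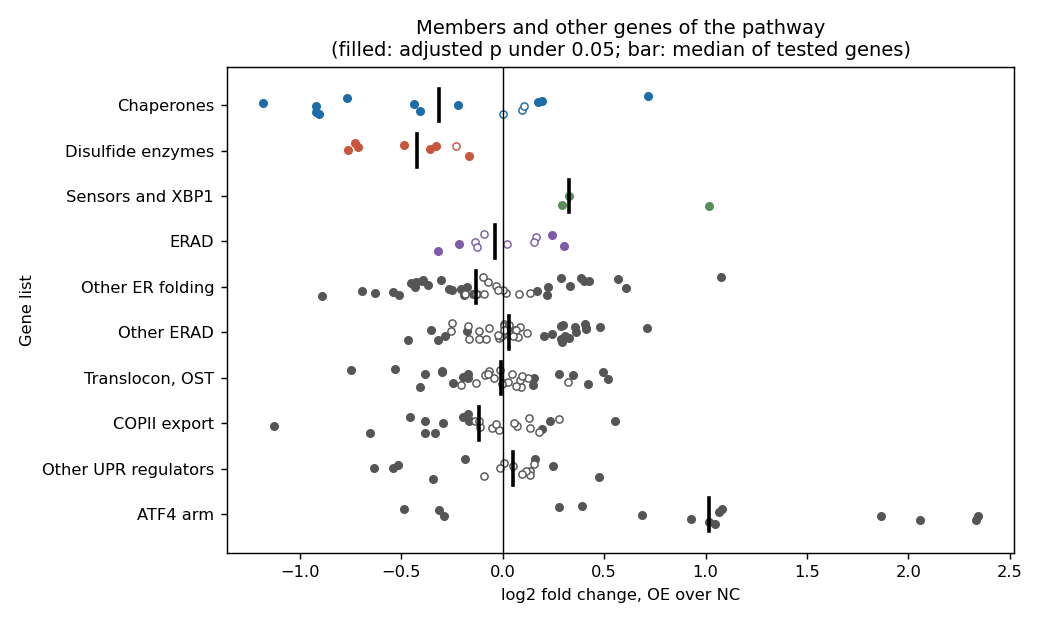
Log2 fold change of OE over NC (x axis) for each tested gene of the classes above and of 6 further lists (y axis), with a bar at the median of each list. The medians of the chaperones and disulfide enzymes lie at −0.32 and −0.42, that of the sensor genes at 0.33 and that of the ATF4 arm at 1.02.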

How the data were processed

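RNA of 6 HK-2 samples was sequenced by the authors as stranded mRNA libraries, read from both ends. Reads were trimmed with FASTX-Toolkit and aligned to GRCh38 with HISAT2, and uniquely mapped reads were counted. The processing notes of the submitters also list mm10, while the gene identifiers are human. The counting program and the annotation release are not given in the sources used here. The deposited count table holds raw counts of 31369 genes. The authors also deposited FPKM, fragments scaled to transcript length and library size, for 30896 genes. Groups were taken from the genotype entries, and columns were matched to samples by group name and number.

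The main test was the quasi-likelihood test of edgeR 4.0.16 (R 4.3.3) after filterByExpr and TMM, with p-values adjusted over 15878 tested genes by Benjamini and Hochberg. A gene passed at an adjusted p under 0.05. The standard error is the size of the change divided by the square root of F. CPM was scaled by TMM. Values per kilobase of canonical transcript were scaled by total counts without TMM. DESeq2 1.42.0 and limma 3.58.1 were alternatives, limma being run on log2(FPKM) with 1 or 0.1 added. The test was checked on simulated data. Ratios were compared by exact permutation with scipy 1.17.1. Counting error is small at this depth for most members. It is largest for those with 125 counts or fewer in every sample. ERN1 (110 to 314 counts), SYVN1 (223 to 261) and EDEM3 (217 to 277) were also counted few times. Replicates were not copies, with a mean chi-square per gene between 4.83 and 11.0.

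All 35 members were named. Values of every sample were given for up to 4 members with the largest change in each class and for 9 further fixed members, and those of CANX, HYOU1, SIL1, ERO1A, EIF2AK3 and DDIT3 were chosen after they were seen, as were the ratios and the use of canonical transcript length. The members and lists were chosen with earlier results of these data known. Positions are from GENCODE release 44 and promoter windows from RefSeq on GRCh38.p14. All motif matches were found at their coordinates in the genome. Figures were drawn with matplotlib 3.10.9.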

Additional observations from a re-analysis of the deposited data

How the results depend on the processing

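Over 14 alternatives (DESeq2's Wald test, DESeq2's size factors or upper quartile normalization in edgeR, no filter on low counts, at least 10 counts in every sample, the replicate number as a block, limma on either FPKM scale and each sample left out), 16 to 17 members were lower and 6 to 8 higher, and 27 of the 35 kept direction and side of the threshold in every one. Past a fold of 2 were 2 members, but 1 under upper quartile normalization, 0 in both limma fits, whose pseudocount shrinks changes of low genes, and 1 to 2 with a sample left out. With the replicate block 16 were lower, 7 higher and 2 past a fold of 2, ERO1A and EDEM1 missing the threshold (adjusted p = 0.058 and 0.059 from edgeR). The block changed no other member's call. Same-numbered samples did not deviate together (correlations −0.0191, −0.173 and −0.175 over tested genes), and no sample correlated best with its own number. The cause of these differences was not tested. EDEM1 also missed the threshold with DESeq2, upper quartile normalization, no filter and both limma fits, ERO1A with both limma fits, SIL1 with upper quartile normalization (0.073) and SEL1L with limma at a pseudocount of 1 (0.056), while HERPUD1 passed with limma (0.041 and 0.038). Values near 0 changed sign: CANX was −0.035 under upper quartile normalization, −0.0037 with at least 10 counts in every sample and −0.038 to 0.051 with a sample left out, DERL2 −0.019 under upper quartile normalization and −0.046 to 0.12 with a sample left out, and DERL3 −0.38 to 0.11. Depth limits DERL3, ERO1B and CRELD1 most, with 125 counts or fewer in every sample.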
